A study of Mus musculus with 26 samples.

Results

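Hippocampal gene expression was compared between aged mice carrying an amyloid precursor protein (APP) transgene and non-transgenic mice, on 9 of the 26 Affymetrix arrays of the study. The arrays were chosen by their titles: 4 came from APP transgenic mice treated with GFP (green fluorescent protein), 2 from non-transgenic mice treated with GFP and 3 from non-transgenic mice with a sham lesion. Lentivirus carrying BDNF (brain-derived neurotrophic factor) or GFP was given in the entorhinal cortex, and RNA was made from tissue collected 4 weeks later. The other hippocampal arrays, 4 from transgenic mice treated with BDNF, entered the estimate of spread and are shown beside the results, and the 13 entorhinal arrays serve for 1 comparison of the regions. The labels call the replicates biological and the tissue aged. The sources used here name neither the transgenic line, nor the promoter that drives the transgene, nor an age in months, and the labels do not say which arrays of the 2 regions came from the same mouse. P-values therefore measure the spread between these arrays. The non-transgenic controls are of 2 kinds, so the called genes and the gene groups of the main lists are given against all 5 of them and also against the vector-matched and the sham controls apart. Where only 1 value is given for a gene, it is the difference from all 5.

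APP is a membrane protein of neurons whose sequential cleavage by beta- and gamma-secretase releases amyloid-beta, the peptide that aggregates into plaques in Alzheimer's disease. The hippocampus receives its main cortical input from the entorhinal cortex through the perforant path, which ends largely on dentate granule cells. In mice with APP transgenes, plaques are typically surrounded by activated microglia and reactive astrocytes, and granule cells can lose the calcium-binding protein calbindin.

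The tissue read as hippocampus. The granule cell markers Prox1, Dsp, C1ql2, Tdo2 and Lct (5 of 6 fixed) were higher on each of the 9 hippocampal arrays compared than on any of the 9 entorhinal arrays of the same groups, as were 2 of 3 tested CA1 markers and 4 of 6 markers of CA3 and CA2. Calb1 was the granule cell exception, at 11.03 to 11.69 in hippocampus and 11.60 to 12.28 in entorhinal cortex. All arrays held log2 values made by robust multi-array average (RMA), with array medians between 5.51 and 5.58, and 14941 genes were tested, each through 1 probe set. Several arrays stood apart. The 7 tested choroid plexus genes averaged 8.44 on sham array 1 and 5.96 to 6.26 on the other 8 arrays compared. Xist, which is made only from the inactive X of female cells, was high on transgenic GFP arrays 1 and 3 (11.01 and 10.81) and on all 5 non-transgenic arrays (10.53 to 10.88), and low on transgenic GFP arrays 2 and 4 (5.39 and 5.38). The Y-linked genes Eif2s3y, Kdm5d and Uty reached 8.30, 7.54 and 6.56 on transgenic GFP arrays, and at most 3.41, 3.00 and 3.86 on non-transgenic ones. The mean of the 8 sex-linked genes tested was 8.39 and 8.27 on transgenic GFP arrays 2 and 4. On the other arrays compared it was 7.54 to 7.67. Arrays 2 and 4 thus read as male and the others as female, so sex, given here as Xist class, moved partly with genotype. The labels give no sex per sample. The called genes are given within each Xist class, and lists that moved with 1 array are given without it.

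The transgene target itself did not separate the groups. App read 13.03, 13.16, 13.17 and 13.24 on transgenic GFP arrays 1 to 4, 13.17 and 13.23 on the non-transgenic GFP arrays, and 13.11, 13.20 and 13.12 on the sham arrays, a difference of −0.01 ± 0.06 on the log2 scale (SE, n = 4 and 5). None of its 4 probe sets had arrays that did not overlap. The species of the transgene and the transcript positions that these probe sets read are not stated in the sources used here, so App does not check the genotype labels. Bdnf differed by 0.01 ± 0.16 and its receptor Ntrk2 by 0.07 ± 0.09.

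Of the 14941 genes, 6 (0.0402%) differed between transgenic GFP and all non-transgenic arrays at an adjusted p under 0.05 by limma with Benjamini-Hochberg adjustment, 3 higher (0.0201%) and 3 lower (0.0201%). They were Thy1, Pmaip1 and Stard4, which rose, and St13, Mgp and Fgf1, which fell. Against the non-transgenic GFP arrays alone 1 gene (0.00669%) was called, Thy1, and against the sham arrays alone 11 genes (0.0736%) were called, 6 higher (0.0402%) and 5 lower (0.0335%). These comparisons share the transgenic arrays, and the smaller control groups give each a wider error. Over all genes the median difference was 0.01 against all controls, 0.03 against the GFP controls and −0.00 against sham, and 57.2% of genes read above 0 against all controls (42.8% below), 62.2% against the GFP controls (37.8% below) and 49.4% against sham (50.5% below).

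Thy1, a glycosylphosphatidylinositol-anchored surface glycoprotein of neurons and T cells, had by far the smallest p of these genes. Its log2 level was 13.84, 13.87, 13.99 and 13.89 on the transgenic GFP arrays, 12.65 and 12.56 on the non-transgenic GFP arrays and 12.67, 12.63 and 12.64 on the sham arrays. The transgenic arrays lay far above both control groups, which overlapped each other. Thy1 rose by 1.27 ± 0.05 against all controls (SE, n = 4 and 5, limma adjusted p = 5.46e-08), by 1.29 ± 0.07 against the GFP controls (adjusted p = 1.08e-06) and by 1.25 ± 0.06 against sham (adjusted p = 3.27e-07). The transgenic BDNF arrays, which share the genotype, read 13.85 to 13.93. The difference of Thy1 was 1.29 for the transgenic arrays of high Xist and 1.25 for those of low Xist. Thy1 was called in all alternatives run, and the 5 tested genes on either side of it on chromosome 9 differed by −0.17 to 0.20, with 0 called by limma at an adjusted p under 0.05 and 0 at an unadjusted p under 0.05.

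St13, also called Hip, is a cochaperone that binds the ATPase domain of Hsp70. It read 11.17, 10.73, 10.86 and 10.59 on the transgenic GFP arrays, 11.63 and 11.62 on the non-transgenic GFP arrays and 11.65, 11.65 and 11.53 on sham. All transgenic arrays were below all controls, and array 1 lay nearest to them. St13 fell by 0.78 ± 0.10 (SE, n = 4 and 5, limma adjusted p = 0.00996), with −0.79 ± 0.12 against the GFP controls (adjusted p = 0.126) and −0.77 ± 0.11 against sham (adjusted p = 0.0133). A second probe set read −0.95, again with no overlap, while the third read −0.21 and overlapped. The transgenic BDNF arrays read 10.87 to 11.02. For St13 the transgenic arrays of high Xist read −0.60 and those of low Xist −0.95. The call of St13 was lost without sham array 2 (−0.77, adjusted p = 0.0594), over the arrays of high Xist (−0.60, adjusted p = 0.213) and with only the compared groups in the fit (adjusted p = 0.107).

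Genes next to St13 were measured as well. Of the 5 tested genes on either side of it on chromosome 15, 6 of 10 read below 0. Limma called 0 of the 10 at an adjusted p under 0.05, and 4 had an unadjusted p under 0.05, as did 4.49% of all genes. Of the 4, 4930483J18Rik read above 0 (0.23 ± 0.10) and the other 3 below. Mchr1, the receptor for melanin-concentrating hormone, lies 3 tested genes away and read 7.70, 7.86, 7.75 and 7.97 on the transgenic GFP arrays against 8.09 to 8.32 on the 5 controls, which did not overlap (−0.39 ± 0.08, limma adjusted p = 0.269). Its other probe sets read −0.41 and −0.40, the first without overlap. The peroxisomal carrier Slc25a17, directly beside St13, read −0.40 ± 0.11, and Xpnpep3, on its other side, −0.31 ± 0.13, both with overlapping arrays. Against the GFP and sham controls apart Mchr1 read −0.34 and −0.43. With all 26 arrays in 1 fit Mchr1 was called (adjusted p = 0.0485), while Pmaip1 (adjusted p = 0.0571) and Mgp (adjusted p = 0.972) were not.

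Stard4, a cytosolic carrier that moves cholesterol between membranes and is a target of the sterol-sensing factor SREBP-2, read 8.43, 8.10, 8.22 and 8.41 on the transgenic GFP arrays, 7.68 and 7.48 on the non-transgenic GFP arrays and 7.87, 7.73 and 7.72 on sham. Every transgenic array was above every control. Stard4 rose by 0.60 ± 0.08 against all controls (SE, n = 4 and 5, limma adjusted p = 0.0159), with 0.71 ± 0.11 against the GFP controls (adjusted p = 0.111) and 0.52 ± 0.09 against sham (adjusted p = 0.0907). Its other probe sets read 0.45 and 0.34, both with overlap, and the BDNF arrays 8.19 to 8.40. Stard4 read 0.63 for the transgenic arrays of high Xist and 0.56 for those of low Xist. Its call was lost without transgenic GFP array 1 (0.55) or 4 (0.55), non-transgenic GFP array 2 (0.54), or sham array 2 (0.60) or 3 (0.60), at adjusted p of 0.0535 to 0.0822. The call of Stard4 was also lost with Xist as a covariate (0.61, limma adjusted p = 0.0825) and over the arrays of high Xist (0.63, adjusted p = 0.213). With only the compared groups in the fit it was lost too (adjusted p = 0.174).

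Mgp, a vitamin K-dependent inhibitor of calcification made by vascular and meningeal cells, read 7.61, 7.31, 7.56 and 7.29 on the transgenic GFP arrays, 7.91 and 7.88 on the non-transgenic GFP arrays and 8.34, 8.40 and 8.47 on sham. The 3 groups were in order, with the GFP controls between the others and no overlap. The transgenic BDNF arrays, which share the genotype, read 7.50, 7.98, 7.69 and 7.76 and so overlapped the GFP controls. Their difference from all controls was −0.46 ± 0.10 (limma adjusted p = 0.302). Mgp fell by 0.75 ± 0.10 against all controls (SE, n = 4 and 5, limma adjusted p = 0.0119) and by 0.96 ± 0.11 against sham (adjusted p = 0.00285). Against the GFP controls it read −0.45 ± 0.13 (adjusted p = 0.988), and the GFP controls themselves read −0.51 ± 0.13 against sham (adjusted p = 0.373). Mgp read −0.61 for the transgenic arrays of high Xist and −0.90 for those of low Xist. The call of Mgp was lost without any 1 of the 3 sham arrays (−0.72 to −0.69) or without transgenic GFP array 4 (−0.70). It was also lost with Xist as a covariate (−0.67) and over the arrays of high Xist (−0.61).

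Pmaip1 and Fgf1 differed from all controls, and their levels overlapped those of the vector-matched ones. Pmaip1, which encodes the proapoptotic protein Noxa, read 6.24, 6.51, 6.37 and 6.37 on the transgenic GFP arrays and 6.46 and 6.15 on the non-transgenic GFP arrays, against 5.16, 5.02 and 4.83 on sham. Fgf1, the acidic fibroblast growth factor, read 8.27, 8.18, 8.11 and 8.27 on the transgenic GFP arrays and 8.34 and 8.06 on the non-transgenic GFP arrays, against 9.15, 9.01 and 9.03 on sham. In both genes the 2 GFP-treated genotypes overlapped and the sham arrays stood alone. Pmaip1 rose by 0.85 ± 0.09 against all controls (SE, n = 4 and 5, limma adjusted p = 0.00339) and by 1.37 ± 0.10 against sham (adjusted p = 5.79e-05), with 0.07 ± 0.12 against the GFP controls (adjusted p = 0.994). Fgf1 fell by 0.51 ± 0.07 against all controls (adjusted p = 0.0154) and by 0.86 ± 0.08 against sham (adjusted p = 0.000334), with 0.01 ± 0.09 against the GFP controls (adjusted p = 0.998). Within non-transgenic mice, GFP against sham gave 1.30 ± 0.12 for Pmaip1 (adjusted p = 0.000902) and −0.86 ± 0.09 for Fgf1 (adjusted p = 0.00238), 2 of the 5 genes (0.0335%) called there. By Xist class, high and low, Pmaip1 read 0.78 and 0.92 and Fgf1 −0.53 and −0.49. Pmaip1 lost its call without sham array 2 (0.72), and Fgf1 without sham array 1 (−0.40), 2 (−0.44) or 3 (−0.43) or transgenic GFP array 4 (−0.53). Over the arrays of high Xist both calls were lost (Pmaip1 0.78, limma adjusted p = 0.211, and Fgf1 −0.53, adjusted p = 0.258). Fgf1 also lost its call with Xist as a covariate (−0.52, adjusted p = 0.0779) and with only the compared groups in the fit (adjusted p = 0.174).

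**Figure D1:**
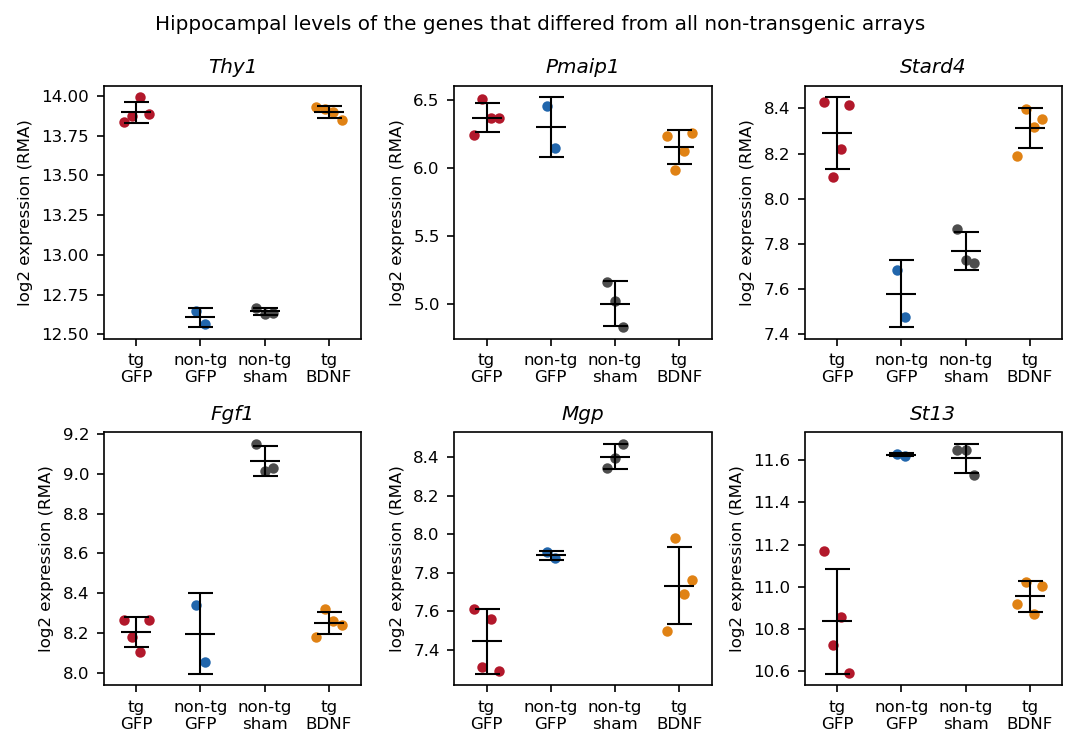
Log2 expression of the 6 genes that differed from all non-transgenic arrays, on every hippocampal array (points) by group, with the group mean and SD (bars); tg is transgenic and non-tg non-transgenic. Thy1, Stard4 and St13 separate both non-transgenic groups from the transgenic ones, while Pmaip1 and Fgf1 separate sham from all GFP- or BDNF-treated groups.

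Among the genes called against sham, in 9 of the 11 the mean of the non-transgenic GFP arrays lay nearer to the transgenic than to the sham mean, and in Thy1 and St13 nearer to sham. The choice of these genes used the sham arrays, so that count is a description. Creg2, a secreted neuronal glycoprotein, was 1.72 ± 0.22 higher against sham (SE, n = 4 and 3, limma adjusted p = 0.00743) and read −0.25 ± 0.25 against the GFP controls. The splicing factor Cwc22 was 0.88 ± 0.08 higher against sham (adjusted p = 0.000447) and −0.28 ± 0.10 against the GFP controls. Galc, the lysosomal galactosylceramidase that degrades myelin lipids, was lower by −0.89 ± 0.11 against sham (adjusted p = 0.00356) and read 0.05 ± 0.12 against the GFP controls. The chemokine receptor Cxcr4 (0.85 ± 0.12, adjusted p = 0.0133) and the desmosomal linker Ppl (0.45 ± 0.07, adjusted p = 0.0261) were higher against sham, and 1500015A07Rik was lower (−0.60 ± 0.08, adjusted p = 0.0106). Against the GFP controls these 3 read 0.16, −0.01 and −0.01. In the contrast with sham alone, genotype and vector differ together and cannot be told apart. Between the non-transgenic groups, GFP minus sham was 1.97 ± 0.27 for Creg2 (SE, n = 2 and 3, limma adjusted p = 0.0170). It was 1.16 ± 0.10 for Cwc22 (adjusted p = 0.000545) and −0.93 ± 0.13 for Galc (adjusted p = 0.0170), which were also among the 5 genes called there. Cxcr4, Ppl and 1500015A07Rik, not called there, read 0.70, 0.47 and −0.59.

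**Figure D2:**
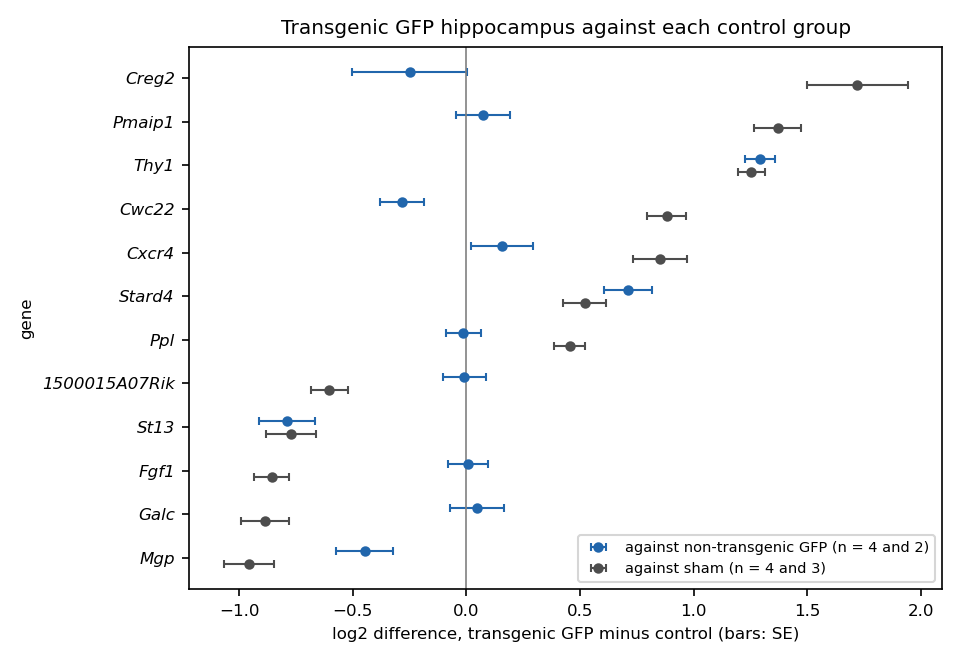
Log2 difference of the transgenic GFP arrays from non-transgenic GFP arrays (blue) and from sham arrays (grey), with SE, for the 12 genes called against all controls or against sham. Thy1 and St13 lie at 1.29 and −0.79 against the GFP controls and at 1.25 and −0.77 against sham, whereas Pmaip1, Fgf1, Galc, Ppl and 1500015A07Rik lie between −0.01 and 0.07 against the GFP controls.

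Of all tested genes, called or not, 137 (0.917%) had 4 transgenic GFP arrays that did not overlap the 5 controls, 79 higher (0.529%) and 58 lower (0.388%). With so few arrays some genes fall apart in this way without any difference, and the share was not tested against that. The share of genes with an unadjusted limma p under 0.05 was 4.49%, no more than that threshold alone would give. Non-overlap by itself therefore marks no gene as changed.  None of the following passed the test (limma adjusted p of 0.212 to 0.56 over the genes named here). Among the higher ones were Micu3, a regulator of mitochondrial calcium uptake in neurons, which read 9.71, 9.68, 9.32 and 9.49 against 9.05 to 9.29 on the controls (0.39 ± 0.08), and the proprotein convertase Furin, which read 7.50 to 7.60 against 7.27 to 7.36 (0.26 ± 0.05). Further ones were the dynactin subunit Dctn6 (0.31 ± 0.06, with 0.12 against the GFP controls and 0.43 against sham), the chitinase-like Chil1 (0.42 ± 0.09), the actin nucleator Fmn1 (0.53 ± 0.13), Tlnrd1 (0.25 ± 0.06), BC030500 (0.46 ± 0.09) and the immediate early gene Ier5 (0.37 ± 0.09), whose other probe sets read 0.13 and −0.97. Among the lower ones were Klf2, a flow-responsive transcription factor of endothelium, which read 6.63, 6.49, 6.84 and 6.96 against 7.18 to 7.28 (−0.49 ± 0.09), and Smo, the signal transducer of the hedgehog pathway (−0.30 ± 0.06). Ccdc91 (−0.41 ± 0.09), the GABA receptor subunit Gabrg3 (−0.31 ± 0.07, with other probe sets at 0.18, 0.06 and −0.05), Myom3 (−0.36 ± 0.07) and Vwa3b (−0.34 ± 0.07) were also apart. Slc26a7 (−0.70 ± 0.14) was too, but its hippocampal values of 2.92 to 4.21 lay under the level of 4.33 used as a filter, which it passed through the entorhinal arrays. On the transgenic BDNF arrays Klf2 read 6.41 to 6.71, a difference of −0.62 from all controls, and Slc26a7 also differed by −0.62. The other genes lay nearer to the controls there than on the transgenic GFP arrays. The BDNF arrays read −0.04 for Chil1, 0.06 for Tlnrd1, −0.07 for Gabrg3 and −0.11 for Ccdc91. They read 0.13 for Furin, −0.14 for Vwa3b, 0.15 for Ier5 and −0.19 for Myom3. Micu3 and BC030500 read 0.20 each, Fmn1 0.21, Smo −0.21 and Dctn6 0.24.

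Gene groups were described by the number of members above 0 and their median, beside the 57.2% and the median of 0.01 over all genes against all controls. Brain cholesterol is made locally: the mevalonate pathway turns acetyl-CoA into isoprenoids and cholesterol and SREBP-2 raises its enzymes when membrane sterol is low. Cholesterol synthesis genes (20 listed, 17 with a probe set and tested) read above 0 in 16 of 17, with a median of 0.29, and the list median was 0.41 against the GFP controls (17 of 17) and 0.19 against sham (15 of 17). None passed the test over all genes, 10 of 17 had an unadjusted p under 0.05 in the higher direction against 2.65% of all genes, and 0 of 17 had non-overlapping arrays.

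**Figure D3:**
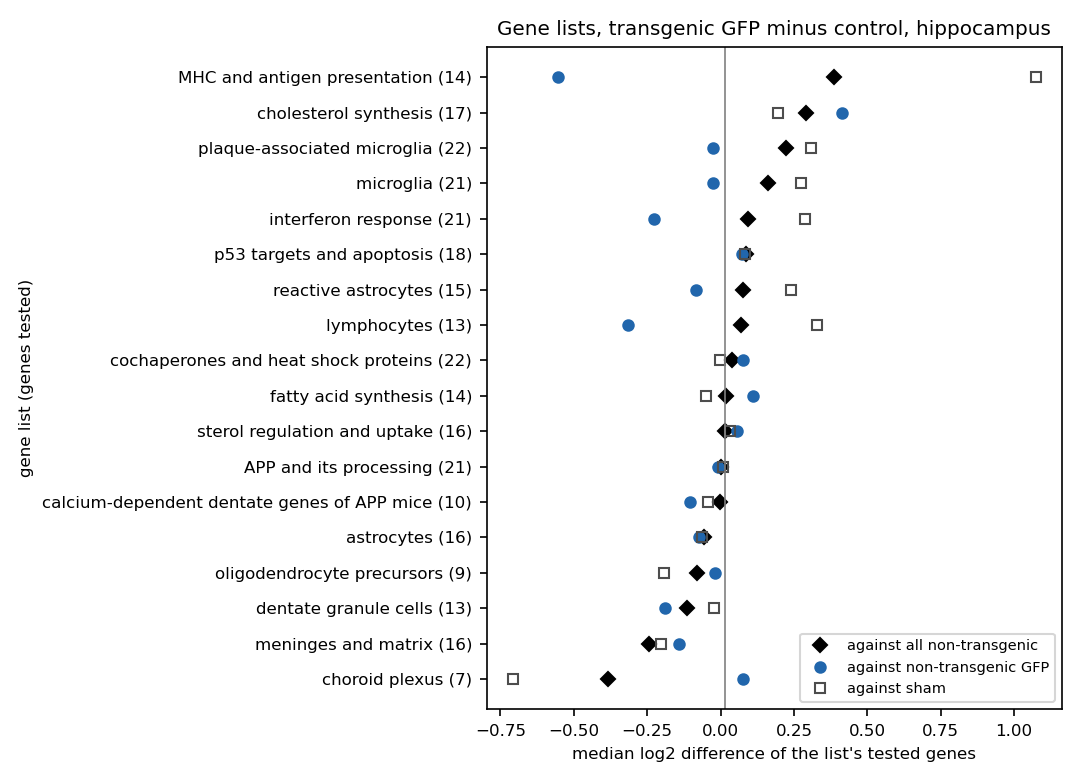
Median log2 difference of the tested genes of 18 lists, transgenic GFP minus all non-transgenic (diamonds), non-transgenic GFP (circles) and sham arrays (squares), with the median of all genes as a line. Cholesterol synthesis genes lie above the line against both controls, and MHC genes lie at 1.07 against sham and −0.55 against the GFP controls.

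Along the pathway, the early enzyme Hmgcs1 (HMG-CoA synthase) read 0.31 ± 0.07, the isomerase Idi1 0.41 ± 0.13, the decarboxylase Mvd 0.41 ± 0.15 and the farnesyl diphosphate synthase Fdps 0.38 ± 0.10. Fdft1, which makes squalene and so commits the pathway to sterols, read 11.09, 10.34, 10.65 and 10.97 on the transgenic GFP arrays, 10.10 and 10.07 on the non-transgenic GFP arrays and 10.19, 10.26 and 10.36 on sham (0.57 ± 0.12, limma adjusted p = 0.269). The squalene epoxidase Sqle read 10.40, 9.98, 10.36 and 10.47 against 9.66 and 9.92 and against 9.87, 9.87 and 10.03 (0.43 ± 0.09, adjusted p = 0.315). In both genes transgenic array 2 lay inside the range of the controls and the other 3 above it. Later steps included Msmo1 (0.29 ± 0.12), Nsdhl (0.37 ± 0.09) and Dhcr7, the last reductase of the pathway (0.30 ± 0.08). Sc5d alone read below 0 (−0.01 ± 0.31), and its arrays ranged from 7.61 to 9.13 over these 3 groups.

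The transgenic arrays differed among themselves on this list. Its mean was 9.10, 8.65, 8.79 and 9.14 on transgenic GFP arrays 1 to 4, 8.51 and 8.57 on the non-transgenic GFP arrays and 8.73, 8.67 and 8.80 on sham. On arrays 1 and 4, 16 of the 17 genes were above all 5 controls, on array 3 it was 8 of 17 and on array 2 it was 0 of 17. Arrays 1 and 4 are of opposite Xist class. The transgenic BDNF arrays had means of 8.80 to 8.90. Leaving out each array in turn kept the median between 0.21 (without non-transgenic GFP array 1) and 0.36 (without transgenic GFP array 2), and without transgenic array 2 limma called Fdft1 (0.71, adjusted p = 0.0134) and Sqle (0.54, adjusted p = 0.0194), and Fdps among 9 genes in all.

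**Figure D4:**
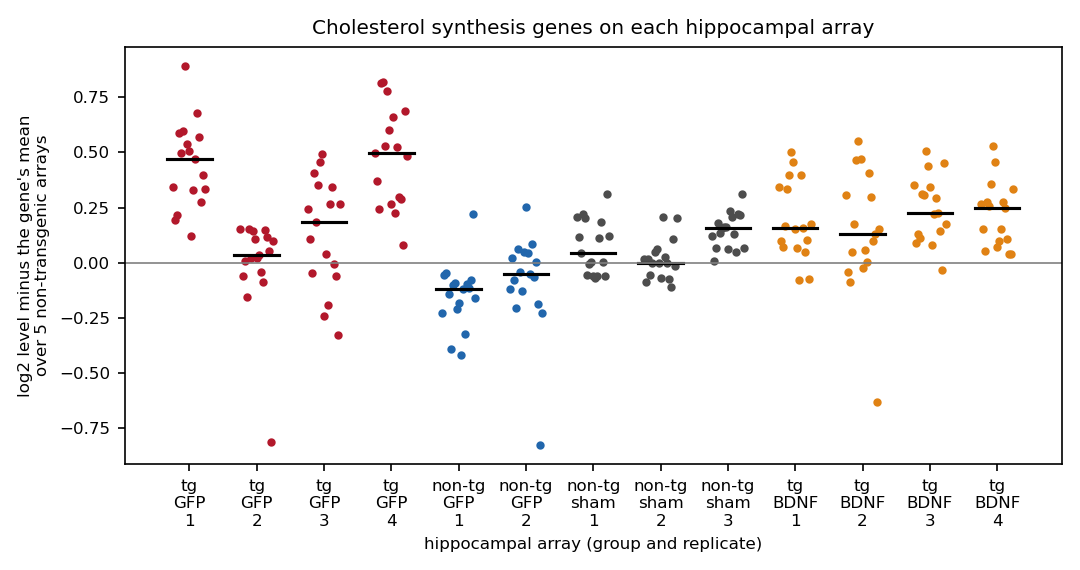
Each of the 17 cholesterol synthesis genes (points) on each hippocampal array, as its log2 level minus its mean over the 5 non-transgenic arrays, with the median per array (bars). The medians were 0.47 and 0.50 on transgenic GFP arrays 1 and 4, 0.18 on array 3 and 0.04 on array 2.

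Because these members read together, the sequence before their start sites is shown. RefSeq promoters (GRCm38.p6, 250 bases before each start) were matched for 14 of the 17 genes, with 17 promoters. Fdft1, Sqle and Fdps were not among them, so the motif counts leave them out. The CCAAT box, bound by NF-Y, which works with SREBP at sterol genes, was searched as CCAAT on both strands and lay in 14 of the 17 promoters, against 33.8% of all 32851 promoters. The Sp1 motif GGGCGG lay in 14 of 17, against 32.7%. The sterol regulatory element, searched as TCACNCCAC, lay in 1, that of Hmgcs1, against 1.05%. No matches of different motifs overlapped in these promoters. A match describes the letters only. The 200 bases before the start are printed for 5 genes that span the pathway (Hmgcs1, chr13:119690151-119690350, plus strand; Mvk, the mevalonate kinase, chr5:114444069-114444268, plus; Idi1, chr13:8885406-8885605, plus; Lss, which closes the sterol rings, chr10:76531405-76531604, plus; Msmo1, chr8:64733579-64733778, minus), with CCAAT boxes, or ATTGG where they lie on the other strand, and the sterol regulatory element in capitals:
Hmgcs1: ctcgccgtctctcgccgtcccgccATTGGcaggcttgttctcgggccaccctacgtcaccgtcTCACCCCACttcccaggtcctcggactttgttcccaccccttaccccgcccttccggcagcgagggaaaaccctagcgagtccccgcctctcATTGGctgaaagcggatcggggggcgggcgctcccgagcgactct
Mvk: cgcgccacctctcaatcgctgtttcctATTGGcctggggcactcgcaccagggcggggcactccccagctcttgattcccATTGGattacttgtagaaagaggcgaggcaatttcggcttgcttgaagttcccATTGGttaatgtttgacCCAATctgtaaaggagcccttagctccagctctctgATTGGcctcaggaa
Idi1: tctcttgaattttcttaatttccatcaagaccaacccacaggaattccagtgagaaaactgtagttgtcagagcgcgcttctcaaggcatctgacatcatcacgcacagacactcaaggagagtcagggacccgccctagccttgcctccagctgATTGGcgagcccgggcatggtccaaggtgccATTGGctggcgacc
Lss: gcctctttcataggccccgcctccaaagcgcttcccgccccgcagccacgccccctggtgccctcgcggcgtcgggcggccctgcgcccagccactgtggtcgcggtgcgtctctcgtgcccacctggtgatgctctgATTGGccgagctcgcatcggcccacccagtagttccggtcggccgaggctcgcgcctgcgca
Msmo1: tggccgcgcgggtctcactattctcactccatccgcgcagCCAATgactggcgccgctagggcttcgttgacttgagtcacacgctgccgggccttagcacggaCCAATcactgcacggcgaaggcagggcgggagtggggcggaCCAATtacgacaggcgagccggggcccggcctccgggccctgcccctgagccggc
Msmo1 and Mvk carried 3 and 5 CCAAT matches in this stretch, and read 0.29 ± 0.12 and 0.15 ± 0.08. Hmgcs1 and Idi1, with 2 matches each, read 0.31 ± 0.07 and 0.41 ± 0.13, and Lss, with 1, read 0.14 ± 0.14.

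Groups around the pathway had smaller medians. Genes of sterol regulation and uptake (16 tested of 20 listed) read above 0 in 8 of 16 with a median of 0.02 (0.06 against the GFP controls and 0.03 against sham), and Stard4 was the 1 called. Other members were Insig1, the SREBP-retaining protein that is itself induced by SREBP (0.36 ± 0.12), Srebf2, which encodes SREBP-2 (0.27 ± 0.11), and Apoe, the main lipid carrier of astrocytes (−0.15 ± 0.06), while Abca1, Npc1 and Lpl lay between −0.06 and −0.01. Fatty acid synthesis genes (14 of 14 tested) read above 0 in 9 with a median of 0.02, in 12 against the GFP controls (0.11) and in 4 against sham (−0.05). The largest of these was Fads2 at 0.15 ± 0.09.

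MHC, interferon and lymphocyte genes had medians above sham and below the vector-matched controls. MHC and antigen presentation genes (14 tested of 18 listed) read above 0 in 14 of 14 against all controls (median 0.39) and against sham (1.07), and in 0 of 14 against the GFP controls (−0.55). The list mean was 9.16, 9.38, 9.18 and 7.22 on transgenic GFP arrays 1 to 4, 9.94 and 8.77 on the non-transgenic GFP arrays and 7.27, 7.09 and 7.40 on sham. Transgenic array 4 was at the level of sham, and the other 3 were within the range of the GFP controls. Cd74, the invariant chain of MHC class II, read 10.53, 10.93, 10.78 and 6.57 on the transgenic arrays, 11.81 and 10.23 on the non-transgenic GFP arrays and 6.22 to 6.38 on sham (1.53 ± 0.87, limma adjusted p = 0.999). The class I gene H2-D1 read 10.29 to 12.21, 10.86 to 12.49 and 9.16 to 9.64 in the same order (1.12 ± 0.45). Over its 9 probe sets the difference from all controls ranged from −0.02 to 1.20. Leaving out 1 array at a time moved the list median from 0.19 (without sham array 2, and without sham array 1 or transgenic array 2) to 0.80 without transgenic array 4 and 0.82 without non-transgenic GFP array 1.

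Lymphocyte genes (13 tested of 22 listed) had a median of 0.07 against all controls, −0.32 against the GFP controls and 0.33 against sham. Ighm, the immunoglobulin mu chain, read 12.30, 12.81, 7.22 and 7.50 on the transgenic GFP arrays, 12.12 and 12.44 on the non-transgenic GFP arrays and 6.31, 6.60 and 6.39 on sham. Transgenic arrays 1 and 2 were thus level with the GFP controls and arrays 3 and 4 nearer to sham. Jchain, the joining chain of plasma cells, read 10.39, 11.51, 8.76 and 4.73 on the transgenic arrays, 11.00 and 10.89 on the GFP controls and 3.21 to 4.42 on sham. Interferon-response genes (21 tested of 24) had medians of 0.09, −0.23 and 0.29 against all, GFP and sham controls, with list means of 7.15, 6.997, 6.998 and 6.03 on the transgenic arrays, 7.62 and 6.53 on the GFP controls and 6.24 to 6.57 on sham. With 1 array left out, the lymphocyte median ranged from 0.01 (without sham array 2) to 0.24 (without non-transgenic GFP array 1), and the interferon median from −0.01 (without non-transgenic GFP array 2) to 0.32 (without transgenic array 4). In bulk tissue, a change in the number of cells of a type and a change in RNA per cell cannot be told apart.

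**Figure D5:**
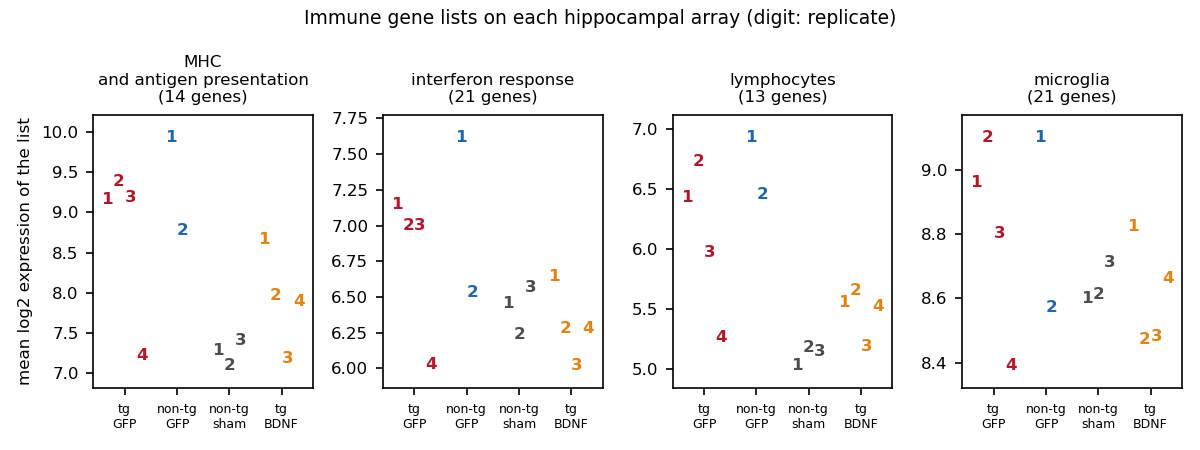
Mean log2 expression of 4 immune gene lists on each hippocampal array; each digit is an array's replicate number, placed at its list mean by group, and the vertical axes do not start at 0. Transgenic GFP array 4 lies within the range of the sham arrays for MHC genes and below it for interferon and microglia genes, and both non-transgenic GFP arrays lie above all sham arrays in the MHC and lymphocyte panels.

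Microglia genes (21 tested of 22) read above 0 in 18 of 21 with a median of 0.16, but in 9 of 21 against the GFP controls (−0.03). Their list mean was 8.96, 9.10, 8.80 and 8.39 on the transgenic GFP arrays, 9.10 and 8.57 on the GFP controls and 8.60 to 8.71 on sham. Fcrls, a receptor specific to resident microglia, ran the other way, at 6.50 to 7.10 on the transgenic arrays, 7.07 and 5.74 on the GFP controls and 8.29 to 8.61 on sham (−1.59 ± 0.29 against sham, limma adjusted p = 0.0921). Genes of plaque-associated microglia (22 tested of 24) read above 0 in 19 of 22 with a median of 0.22, and in 10 of 22 against the GFP controls (−0.03). Trem2, the receptor that drives this state, read 6.93, 6.94, 6.77 and 6.56 against 6.60 and 6.52 and against 6.55 to 6.77 (0.20 ± 0.10). Cst7, an inhibitor of lysosomal proteases, read 5.76, 5.67, 5.74 and 4.25 against 6.41 and 4.77 and against 3.87 to 4.15 (0.71 ± 0.39). None of the members of these lists passed the test against all controls. With 1 array left out, the microglia median ranged from 0.06 (without transgenic array 2) to 0.28 (without array 4) and the plaque-associated one from 0.06 to 0.37 (without the same arrays). Among the transgenic arrays all these lists were lowest on array 4, and their part in other results was not tested.

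Among glial genes, reactive astrocyte genes (15 tested of 18) had a median of 0.08, with −0.08 against the GFP controls and 0.24 against sham, and with −0.05 without transgenic array 2 and 0.17 without array 4. Gfap, the astrocytic intermediate filament, read 10.68, 11.33, 11.57 and 10.18 on the transgenic GFP arrays and 10.53 to 10.86 on the 5 controls (0.26 ± 0.24), so the transgenic arrays lay on both sides of the controls. Serpina3n, an acute-phase protease inhibitor of reactive astrocytes, read 10.31 to 10.84 on the transgenic arrays, 9.77 and 10.34 on the GFP controls and 10.14, 8.86 and 8.84 on sham (0.92 ± 0.29, limma adjusted p = 0.890). Astrocyte genes in general (16 of 16 tested) read below 0 in 13, with a median of −0.06 (−0.07 against the GFP controls and −0.065 against sham), among them the glutamine synthetase Glul (−0.29 ± 0.09), while the potassium channel Kcnj10 read 0.25 ± 0.08. Oligodendrocyte precursor genes (9 tested of 10) read below 0 in 7, with a median of −0.08 (−0.02 against the GFP controls and −0.19 against sham), which was −0.03 without transgenic array 1, −0.14 without array 4 and −0.19 over the arrays of high Xist. Pdgfra, the receptor that defines these precursors, read 9.33, 9.32, 9.09 and 9.32 against 9.36 to 9.63 on the controls (−0.26 ± 0.08, adjusted p = 0.795), with no overlap for 1 of its 3 probe sets.

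Among neuronal genes, those known to follow calcium-dependent activity in the dentate gyrus of APP mice (10 of 10 tested) split evenly, with 5 above and 5 below 0 and a median of −0.00 (−0.10 against the GFP controls, −0.04 against sham, and −0.12 without transgenic array 4). Members were counted without regard to the direction each is known to take, so the split and the median do not describe that response. Calb1, the calbindin gene, read 11.03, 11.40, 11.37 and 11.27 on the transgenic GFP arrays and 11.69, 11.43, 11.53, 11.48 and 11.47 on the controls (−0.25 ± 0.10, limma adjusted p = 0.999). The arrays did not overlap for this probe set, at 11.40 and 11.43 at the nearest, and its other probe sets read −0.28, −0.45 and −0.18 with overlap. Neuropeptide Y (Npy) read 9.70 to 9.94 against 9.98 to 10.51 (−0.38 ± 0.11, adjusted p = 0.672), again without overlap. Arc read 0.16 ± 0.31 and Fos −0.01 ± 0.34. Granule cell genes (13 tested of 14) read below 0 in 10 with a median of −0.11, in 11 against the GFP controls (−0.19) and in 8 against sham (−0.02). The median against all controls ranged with 1 array left out from −0.24 (without transgenic array 2) to −0.02 (without array 4).

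Genes of APP processing (21 tested of 22) read above 0 in 10 of 21, with a median of −0.00 (−0.01 against the GFP controls and 0.01 against sham). The gamma-secretase subunit Ncstn read 6.80, 6.83, 7.52 and 6.89 on the transgenic GFP arrays (0.17 ± 0.13), and Mme, the amyloid-degrading protease neprilysin, 0.27 ± 0.10. The beta-secretase Bace1 read −0.04 and the APP relative Aplp2 −0.11, and none of the list passed the test. Targets of p53 and apoptosis genes (18 tested of 20) read above 0 in 14 with a median of 0.085 (0.07 against the GFP controls and 0.08 against sham), and Pmaip1 was the only one called. Casp9 read 0.19 ± 0.08 on its brightest probe set and −0.11 and −0.13 on the others. Cochaperones and heat shock proteins (22 tested of 25) read above 0 in 15 with a median of 0.04 (0.08 against the GFP controls and −0.00 against sham), St13 being the only one called, and Bag3, a cochaperone of stressed cells, read 8.13 to 8.32 against 7.83 to 8.12 (0.27 ± 0.07, adjusted p = 0.652).

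Genes of meninges and extracellular matrix (16 of 16 tested) read below 0 in 14, with a median of −0.24, and in 13 against the GFP controls (−0.14) and 15 against sham (−0.20). Mgp was the 1 called. Igfbp2, a growth factor-binding protein of the meninges, read 7.55, 7.69, 7.70 and 7.28 on the transgenic GFP arrays against 7.82 to 8.61 on the controls, without overlap (−0.51 ± 0.14, limma adjusted p = 0.662). The small proteoglycan Ogn read 5.98, 6.87, 7.49 and 6.60 against 7.45 to 8.06 (−1.05 ± 0.37), with a second probe set that did not overlap (−1.08), and the collagen Col1a2 7.69, 7.62, 7.14 and 6.51 against 7.35 to 7.96 (−0.44 ± 0.21). The list mean was 7.82, 7.75, 7.62 and 7.25 on transgenic arrays 1 to 4 and 7.84 to 7.96 on the controls, so array 4 was lowest, and without it the median was −0.16 (−0.35 without array 1). Choroid plexus genes (7 tested of 12) read below 0 in 7 of 7 with a median of −0.38 (0.08 against the GFP controls and −0.71 against sham), which was −0.01 without sham array 1. Ttr, the transthyretin of the choroid plexus, read 13.75 on that array and 6.83 to 8.70 on the other non-transgenic and transgenic GFP arrays. Over the other 20 lists, of 273 tested genes, medians lay between −0.08 and 0.09, and Fgf1 was the 1 gene called. The sex-linked list among them had a median of −0.08 but a mean difference of 0.38.

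The entorhinal cortex, where the vector was injected, was compared through the difference between the regions of transgenic GFP minus all non-transgenic arrays. The controls of each region hold both GFP and sham arrays, so genotype and vector are not separated in that difference. Limma called 0 of 14941 genes for that difference at an adjusted p under 0.05, with 301 (2.01%) at an unadjusted p under 0.05. Thy1 read 1.27 in hippocampus and 1.35 in entorhinal cortex, a difference of −0.09 ± 0.07, and St13 −0.78 and −0.77, a difference of −0.01 ± 0.12. Stard4 read 0.60 and 0.37 (0.23 ± 0.12), Mgp −0.75 and −0.49 (−0.26 ± 0.37), Pmaip1 0.85 and 1.08 (−0.23 ± 0.24) and Fgf1 −0.51 and −0.40 (−0.11 ± 0.10). The smallest p for the difference belonged to Slc7a9 (0.16 in hippocampus and −0.23 in entorhinal cortex, limma adjusted p = 1) and Ebf2, a transcription factor (0.11 and −0.68), both dim in hippocampus at 4.12 to 4.48. Cholesterol synthesis genes had medians of 0.29 and 0.17 in the regions, and MHC genes 0.39 and 0.85. A p above the threshold does not show that the regions responded alike, and the SE of a regional difference was 0.13 at the median gene.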

How the data were processed

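RNA of 13 hippocampal and 13 entorhinal samples was measured on Affymetrix mouse arrays of 45101 probe sets. The authors deposited log2 values made by RMA, per the submitters' processing notes; its version and the chip definition were not given in the sources used here. RMA equalises the arrays' distributions, so a shift shared by most genes would not be seen. Probe sets were named through the platform annotation: 34958 had 1 gene symbol, 932 had several and 9211 had no entry, and the latter 2 kinds were not used. Each of 18194 genes was read through its probe set of highest mean, and 14941 whose mean over all 26 arrays reached the 30th percentile of probe sets (4.33) were tested.

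Under R 4.3.3, limma version 3.58.1 (lmFit, then eBayes) was fitted to the 13 hippocampal arrays in 4 groups, with the 5 non-transgenic arrays weighted equally in the comparison with all controls, and to all 26 arrays for the difference between regions. Genes were called at a Benjamini-Hochberg adjusted p under 0.05 over all tested genes. The fit was tested on simulated data. Replicate numbers were not used to pair the samples in the main fit. Intensity files and probe positions were not used. The number of arrays limits the precision.

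The genes named were those called, per direction the 10 of smallest p whose arrays did not overlap, up to 5 of smallest p per described list, those called against the GFP controls, 2 of smallest p for the difference between regions, and App, Thy1, St13, Stard4, Gfap, Bdnf, Ntrk2, Calb1 and Xist. Other genes, among them those called against sham, the neighbours of St13, Fcrls and Jchain, were picked with their values already seen. The gene lists and the comparison were chosen with earlier results of these data known. Promoter sequences came from RefSeq (GRCm38.p6). Alternatives covered the filter, the probe sets, normalization, variance model, array weights, the arrays in the fit, the replicate block, Xist and single arrays left out.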

Additional observations from a re-analysis of the deposited data

Results flagged for a closer look

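In the transgenic GFP group, 1 of the 4 arrays lay far from the other 3 for 10 of 132 values examined, where chance gives about 1 in 20 groups. Array 4 was lowest in 7 of them, all immune: the MHC list mean (7.22, others 9.16 to 9.38), the interferon list mean (6.03, others 6.997 to 7.15), Cd74 (6.57, others 10.5 to 10.9), H2-Aa (5.93, others 9.94 to 10.7), H2-Ab1 (6.43, others 10.3 to 10.7), the interferon-induced GTPase Gbp2 (6.15, others 8.95 to 9.01) and Cst7 (4.25, others 5.67 to 5.76). Array 3 was highest in Ncstn (7.52, others 6.80 to 6.89) and in the choroid plexus channel gene Clic6 (6.42, others 6.10 to 6.15), and lowest in Pdgfra (9.09, others 9.32 to 9.33). The flagged values are not independent, as Cd74, H2-Aa and H2-Ab1 belong to the MHC list and Gbp2 to the interferon list. The counts of flagged values are therefore descriptions.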

How the results depend on the processing

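Thy1 was called against all controls in every alternative run, at 1.24 to 1.29 with 1 array left out. The count of 6 called genes against all controls became 4 with probe sets averaged per gene, 8 with all 26 arrays (4 of them among the 6), 3 when only the compared groups were fitted, 3 with Xist as a covariate, 1 over the arrays of high Xist, and 1 to 10 with 1 array left out (1 without sham array 2, 3 without sham array 3 or transgenic array 4, 9 without transgenic array 2, 10 without transgenic array 3). Against the GFP controls the count of 1 became 2 with all probe sets tested singly, 2 with probe sets averaged per gene, 3 with all 26 arrays, 2 with only the groups compared and 1 to 5 with 1 array left out (5 without transgenic array 2). Against sham the count of 11 became 7 with only the groups compared and 6 to 26 with 1 array left out (26 without transgenic array 4, 6 without sham array 3). For non-transgenic GFP against sham the count of 5 became 3 with the mean of probe sets, 8 with array weights, 8 with all 26 arrays, 21 with only the groups compared, 19 over the arrays of high Xist and 2 to 10 with 1 array left out (10 without GFP array 1, 2 without GFP array 2). For the difference between regions it was 0 to 1 with 1 array left out (1 without entorhinal non-transgenic GFP array 1). The cause of these changes was not tested.

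With the replicate number as a block (replicate block), 1 gene was called against all controls, Thy1, and the counts were 1 against the GFP controls, 11 against sham, 5 for GFP against sham and 0 between regions. Deviations of same-numbered arrays correlated at −0.251 to 0.165 over 16 pairs, with 2 above 0.1. Those of arrays with other numbers correlated at −0.277 to 0.44 over 46 pairs, with 11 above 0.1. Deviations in the group of 2 arrays mirror each other, so the pairs are not independent. These correlations cannot show whether same-numbered samples share a batch.

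Fgf1 lost its call with equal weight of the control groups (−0.43, limma adjusted p = 0.0935) and with the mean of its probe sets (−0.33, adjusted p = 0.192), and Stard4 with the mean of its probe sets (0.46, adjusted p = 0.699). Changes of sign were counted only for genes whose main change exceeded its SE. With the mean of probe sets these were Ier5 (−0.16), Adam10 (−0.070) and Casp9 (−0.019), and with Xist as a covariate Hspb1 (0.011). Trim30a ranged from −0.40 to 0.0040 with 1 array left out (above 0 without transgenic array 4). Clic6 ranged from −0.64 to 0.025 (above 0 without sham array 1). Micu3 was called without transgenic array 3 (0.46, adjusted p = 0.0377). Of the 114 named genes' values, 1006 with 1 array left out and 1440 under other settings kept their side of the threshold. They also kept their direction where the main change exceeded its SE. Direction was not followed for smaller changes. The choroid plexus median was −0.53 without non-transgenic GFP array 1, −0.50 without sham array 3 and −0.01 without sham array 1.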

Other observations

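Gene groups of neurons other than granule cells, and the mitochondrial respiratory chain, had medians of −0.07 to 0.06 against all controls. Synaptic vesicle genes read above 0 in 14 of 19 tested (median 0.04), glutamate receptors in 12 of 20 (0.03), ion channels in 16 of 24 (0.05), genes of GABAergic interneurons in 8 of 15 (0.01) and the mitochondrial respiratory chain in 14 of 24 (0.00). Immediate early genes read above 0 in 8 of 20 (−0.02) and neuropeptides in 6 of 16 (−0.07, with −0.13 against the GFP controls and −0.06 against sham). Genes of CA1 pyramidal cells read above 0 in 5 of 7 (0.06, with 0.13 against the GFP controls and 0.04 against sham). Those of CA3 and CA2 did so in 5 of 11 (−0.02).

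Myelin genes read above 0 in 9 of 15 (median 0.05), in 14 of 15 against the GFP controls (0.16) and in 4 of 15 against sham (−0.07). Genes of endothelium and pericytes read below 0 in 11 of 17 (−0.06).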
